A study of Mus musculus with 25 samples.

Results

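The comparison sets the colon of wild type (WT) mice at the end of 7 days of dextran sulphate sodium (DSS) against the colon of WT mice that had drunk none. Its members are the arrays titled WT at day 7 (5 arrays) and WT at day 0 (3 arrays), which are 8 of the 25 arrays of the series, 1 mouse per array. All mice were female C57BL/6j animals aged 8 weeks, bred in a specific-pathogen-free facility. The day 7 mice had 2% (w/v) DSS in their drinking water for 7 days, and the day 0 mice were taken before DSS. The remaining arrays hold WT mice after 5 further days of plain water (day 12) and Card9-/- mice on the same background at the 3 times. Total RNA of colon, each sample with an integrity number above 7, was labelled with Cy3 (100 ng input) and hybridised to 1-colour Agilent arrays. From its title, the series concerns how CARD9, a signalling adaptor of myeloid cells, acts on colitis through microbial tryptophan products.

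DSS is a sulphated polymer that damages the epithelium of the colon when it is drunk, so that gut bacteria reach the tissue below. In the mouse colon such injury is known for an influx of neutrophils and monocytes, for cytokines of the IL-1 and IL-6 families, for matrix-degrading enzymes, and for antimicrobial proteins made by the epithelium. The healthy colon surface is built of absorptive colonocytes, mucus-making goblet cells, hormone-making enteroendocrine cells and chemosensory tuft cells. In bulk tissue, a change in the number of cells of a type and a change in RNA per cell cannot be told apart.

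The level of a gene is given throughout as log2 of its probe's processed signal minus the 75th percentile of that array, so that 0 is the 75th percentile, and levels on single arrays are listed in the order of the replicate numbers. The 75th percentile itself lay between 214.7 (day 7 replicate 5) and 658.4 (day 7 replicate 3) signal units, and 47.8% to 60.7% of probes were well above background. Of 12 genes that mark gut epithelium, 12 were well above background on all 8 arrays and 0 were called, with differences from -0.48 to 0.30. Among the day 7 arrays, replicates 1 and 5 stood apart. In day 7 replicate 1 the 7 Hox genes listed for proximal colon averaged 2.51 above their day 0 mean, against -0.63 to 0.32 in the other day 7 mice. The 9 Hox genes listed for distal colon were highest in that mouse too, at 1.61 against -0.03 to 1.33. There, 10 adipose genes averaged 1.70 and 17 smooth muscle genes 0.99, against -1.42 to 0.02 for the latter in the other day 7 mice. In day 7 replicate 5 the adipose genes averaged -2.21 and 13 pancreatic acinar genes 2.16, against -0.72 to 0.55 for the latter in the other day 7 mice. None of these proximal Hox, distal Hox, adipose and pancreatic genes was called between the days (0 of 7, 0 of 9, 0 of 10 and 0 of 13). The part of the adipose and pancreatic genes in the results below was not tested. With the mean of the proximal colon Hox genes as a covariate 1541 genes were called, 1085 of the 1102 called without it among them. Card9 itself was not well above background on any of the 3 day 0 arrays and was on 1 of 5 day 7 arrays. It was on every Card9-/- array of days 0 and 7, so WT is used throughout as the label of the arrays.

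At day 7, 1102 of 25500 genes tested (4.32%) differed from day 0 at a limma adjusted p under 0.05. Of these 512 were higher (2.01% of genes) and 590 lower (2.31%). Differences of more than 4-fold were found for 206 of the higher and 68 of the lower genes. The values of the 3 day 0 and 5 day 7 arrays did not overlap for 3037 genes (11.9%), of which 1196 were higher (4.69%) and 1841 lower (7.22%). Both held for 1010 genes, and the median difference over all genes was 0.03. For 75 called genes no day 0 array had the probe well above background, and for 13 no day 7 array did. The fold of such a gene is given as a lower bound. Other rises were well above background on only some of the 3 day 0 arrays. These include Il11, Mmp10, Mmp13, Retnlg, Ccl4, Il1r2, Acod1, Cpa3, Hdc and Ccl24 (1 of 3) and S100a9, Il1b, Mmp3, Ccl2, Cxcl5 and Ido1 (2 of 3). Their day 0 means hold signals near the background, so the sizes of their differences are uncertain. At day 7 Cpa3 was well above background on 3 of 5 arrays and Acod1 on 4 of 5. The spread behind these calls was estimated from all 25 arrays; a fit of the 8 arrays alone called 38 genes (13 higher, 25 lower), and a fit of the 13 WT arrays 531. Without day 0 replicate 1, 2 or 3 the calls were 393, 400 and 563, without day 7 replicate 1 they were 1590, and without both day 7 replicates 1 and 5 they were 1394. With slide as a block 1231 genes were called; within slides 1, 3 and 4, the 3 that held both days, 100%, 98.9% and 100% of the called genes had the same sign as in the whole, the same arrays having made the calls. Scaling to the median of each array moved the median of all genes to -0.27 and left 310 calls, 116 higher (37.4% against 46.5%) and 194 lower.

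**Figure D1:**
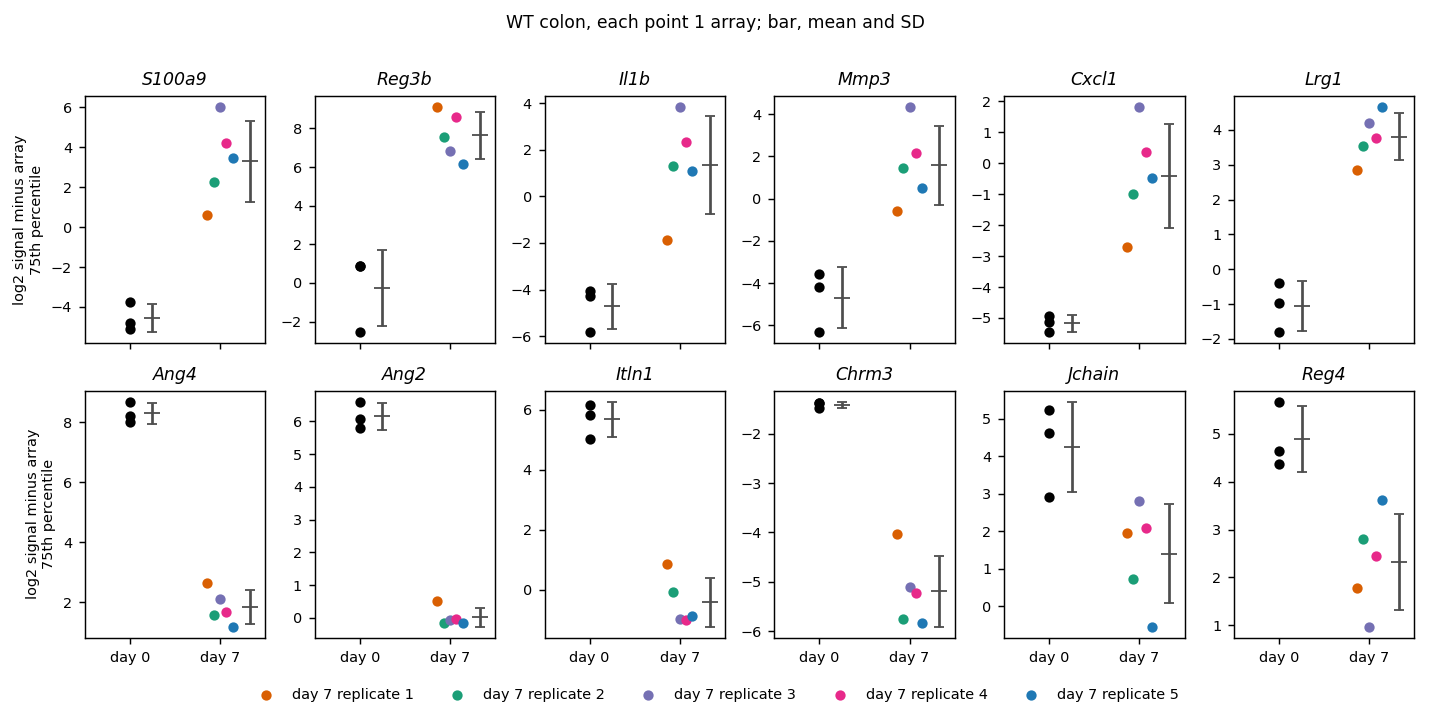
Log2 signal minus the array's 75th percentile (vertical axis) of 12 of the genes with the largest differences, in the 3 day 0 and 5 day 7 WT mice (horizontal axis). Each point is 1 array, coloured by day 7 replicate, and bars give the mean and SD; in none of the 12 genes do the days overlap, and replicate 3 is the highest mouse for S100a9, Il1b, Mmp3 and Cxcl1.

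Genes of neutrophils, the phagocytes that arrive first in injured tissue, were among the largest rises. S100a9, a subunit of the antimicrobial protein calprotectin, stood at -3.77, -5.12 and -4.80 at day 0 and at 0.61, 2.25, 6.01, 4.20 and 3.47 at day 7. Every day 7 mouse lay above every day 0 mouse, and replicates 3 and 1 marked the upper and lower ends. The log2 difference was 7.87 ± 0.80 (SE), or 234-fold (adjusted p = 7.27e-06), with 2 of the 3 day 0 arrays well above background. Its partner subunit S100a8 stood at -6.44, -5.39 and -7.07, not well above background, and then at -1.61, 0.32, 4.15, 2.24 and 1.70, at least 67.1-fold higher (adjusted p = 1.74e-05). The order of the day 7 mice was the same as for S100a9. Ltf, the iron-binding lactoferrin of neutrophil granules, was at least 9.36-fold higher, and its lowest day 7 value, -3.28 in replicate 1, lay apart from the other 4 mice (-1.39 to -0.72). Retnlg, a resistin-like secreted protein, rose by 4.88 ± 0.61 and Clec4d, a C-type lectin receptor of myeloid cells, at least 14.0-fold. Of 21 neutrophil genes tested 11 rose and 0 fell, with a median difference of 2.32. The 3 day 0 values and the 5 day 7 values did not overlap, all in the upward direction, for 14 of the 21. Of the 11 calls 7 are bounds, since for 11 of the 21 genes no day 0 array was well above background. The count ran from 9 to 14 when any 1 of the 8 mice was left out, and the fit of the 8 arrays alone held 1 call. The median of the neutrophil genes was 0.90 with normexp background correction, and in the deposited values, where 11 of them were tested, 3 were called with a median of 0.80.

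Cxcl1, Cxcl2, Cxcl3 and Cxcl5, chemokines that draw neutrophils through the receptor CXCR2, rose. So did the receptor gene Cxcr2 itself and the platelet chemokine Pf4, making 6 of 7 tested with a median of 3.25. For 5 of the 7 no day 0 array was well above background, and only arrays of other groups let them be tested. Of the 6 calls 4 are bounds. The promoters of Cxcl1, Cxcl2 and Cxcl3 are shown because these neighbours moved together and each holds the same NF-kB motif. The lines give the 120 bases up to the annotated start (RefSeq, GRCm38.p6, plus strand) at chr5:90891125-90891244, chr5:90903779-90903898 and chr5:90785981-90786100, with the match to the NF-kB motif (GGGA, any base, TT, any base, CC) in capitals, 71, 97 and 73 bases before the start.
Cxcl1: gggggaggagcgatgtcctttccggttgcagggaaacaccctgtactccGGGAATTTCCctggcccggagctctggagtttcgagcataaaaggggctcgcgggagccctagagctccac
Cxcl2: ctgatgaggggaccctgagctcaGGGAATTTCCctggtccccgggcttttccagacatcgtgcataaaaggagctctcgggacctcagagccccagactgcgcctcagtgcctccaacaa
Cxcl3: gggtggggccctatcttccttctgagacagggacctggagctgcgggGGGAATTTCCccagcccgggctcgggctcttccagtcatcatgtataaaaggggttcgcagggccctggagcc
The 3 matches have the same letters, GGGAATTTCC. A match on either strand lies in 1.2% of all 32851 promoter windows of 300 bases (250 before to 50 after the start), in 3 of the 7 CXC list members, in 4 of 16 members of a list of NF-kB feedback and TNF family genes, and in 0 of 14 CC chemokine genes with a window. Counted per gene, as the list members are, 1.38% of 27025 genes hold a match. Such a match is a description of the letters only. Cxcl1 stood at -5.13, -4.93 and -5.46 at day 0, below the background limit, and at -2.72, -1.0, 1.81, 0.36 and -0.49 at day 7. The days were apart on every array, and the difference was at least 19.7-fold (adjusted p = 0.00036). Cxcl5 stood at -4.59, -3.28 and -3.45 and then at 0.35, -0.14, 3.24, 1.09 and 0.33, a difference of 4.75 ± 0.59 (adjusted p = 0.000109). Again replicate 3 was the highest mouse. Cxcl2 and Cxcl3 were at least 5.27-fold and 2.36-fold higher. Ppbp, another platelet chemokine, was above background on 0 of the 8 arrays and was not called. Without any 1 of the day 0 mice 3 or 4 of the 7 were called, Cxcl1, Cxcl2 and Cxcl5 among them, and under scaling to the array median 3 were. The median of these neutrophil-attracting CXC chemokines was 1.24 with normexp and 2.14 in the deposited values, which hold 4 of them.

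Monocyte-attracting CC chemokines rose as well, 10 of 17 tested with 0 lower and a median of 1.87. Ccl2, the ligand of the monocyte receptor CCR2, stood at -5.30, -4.46 and -3.51 at day 0 and at -1.70, 0.08, 3.62, 1.10 and -0.03 at day 7. The days did not overlap (5.04 ± 0.81, adjusted p = 0.0013). Ccl3 was at least 12.6-fold higher, Ccl4 rose by 4.81 ± 0.74 and Ccl8 by 3.98 ± 0.64. The list of CC chemokines held 6 calls without day 0 replicate 1 and 6 under scaling to the array median, and its median was 1.06 with normexp and 0.97 in the deposited values. Of 25 macrophage and monocyte genes 9 rose and 0 fell (median 1.21). Fcgr4 and Fcgr3, receptors for the constant part of antibodies, rose by 2.80 ± 0.55 and 2.54 ± 0.50. Acod1, which makes the antimicrobial metabolite itaconate, rose by 4.95 ± 0.99 with an overlap, since the lowest day 7 mouse (-3.87) lay below the highest day 0 mouse (-3.15). Marco, a scavenger receptor for bacteria, rose by 2.39 ± 0.55, and Ly6c1 by 1.80 ± 0.38. This list depended on single day 0 mice, with 1 call without day 0 replicate 1 and 5 without replicate 2; without day 7 replicate 4 it held 6, and under scaling to the array median 4.

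Genes of mast cells, granulocytes of the mucosa, changed in both directions. Of 10 tested 5 rose, the proteases Mcpt4 (1.90 ± 0.35), Mcpt2 (2.18 ± 0.50) and Mcpt1 (1.69 ± 0.46), the carboxypeptidase Cpa3 (2.68 ± 0.68) and Hdc, the histamine-making enzyme (3.41 ± 0.72). Kit, the receptor of stem cell factor, which pacemaker cells of the gut wall also carry, fell by 1.08 ± 0.23. Mcpt4 stood at -2.17, -1.93 and -1.66 and then at -0.55, -0.37, 0.20, 0.33 and 0.25, without overlap, whereas Mcpt2, Mcpt1 and Cpa3 overlapped between the days. Without day 0 replicate 2 only Mcpt4 of the 5 rises was called, without day 0 replicate 1 there were 2, and under scaling to the array median there were 2 and Kit was not called (adjusted p = 0.0605). The median of the mast cell genes was 1.76, against 0.78 with normexp and 0.92 in the deposited values. Of 11 eosinophil and type 2 genes 2 rose, the eosinophil chemokine Ccl24 (1.33 ± 0.30) and the transcription factor Gata3 (1.93 ± 0.54); neither was called without day 0 replicate 1 or 2.

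Among cytokines of the IL-1 family, Il1b stood at -5.83, -4.26 and -4.05 at day 0 and at -1.87, 1.30, 3.82, 2.32 and 1.10 at day 7. Each day 7 mouse was above each day 0 mouse (6.05 ± 0.81, 66.2-fold, adjusted p = 0.000246). Of the 3 day 0 arrays 2 were well above background. The decoy receptor gene Il1r2 rose by 3.24 ± 0.52, the alarmin Il33 by 2.94 ± 0.53, its receptor Il1rl1 by 3.40 ± 0.83, and Il18bp, a soluble inhibitor of IL-18, by 2.34 ± 0.48. A second probe of Il1rl1 gave 2.54, and the third, not well above background on any of the 8 arrays, 0.84. Il1a, above background on 0 of 3 day 0 and 3 of 5 day 7 arrays, and the receptor antagonist Il1rn (0.99 ± 0.36) did not pass. Of 18 members of the IL-1 family 5 rose and 0 fell (median 0.80, and 0.51 with normexp or in the deposited values), with 3 calls without day 0 replicate 2.

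In the IL-6 family the ligands Il11 and Il6 and the receptor gene Osmr rose, as did Stat3, the transcription factor these receptors activate, and Socs3, its feedback inhibitor. Il11, well above background on 1 of 3 day 0 arrays, stood at -6.16, -5.16 and -4.44 and then at -2.48, 0.43, 2.84, 1.14 and 0.53 (5.74 ± 0.95, adjusted p = 0.00154). Socs3 stood at 0.55, 0.81 and 0.47 and then at 2.08, 4.48, 4.93, 4.18 and 4.05 (3.34 ± 0.45, adjusted p = 0.000274). For both genes the days were apart, and day 7 replicate 1 was the lowest of the DSS mice. Il6 was at least 10.1-fold higher, Osmr rose by 2.59 ± 0.36 and Stat3 by 0.98 ± 0.18. Ctf1, the cytokine cardiotrophin 1 of the same family, moved the other way, from 0.13, 0.09 and 0.15 to -1.01, -0.75, -1.37, -1.10 and -0.58 (-1.09 ± 0.16, adjusted p = 0.000567). Thus 5 of 18 rose and 1 fell (median 0.78). Osm itself and Lif, each above background on 0 of 3 day 0 and 1 of 5 day 7 arrays, did not pass. The STAT motif TTCCNGGAA, held by 1.35% of all genes with a promoter window, was found in 0 of 15 members of this list. Of 20 NF-kB feedback and TNF family genes 4 rose and 1, the adaptor gene Traf1 (-0.91 ± 0.24), fell. The call of Traf1 was lost without any 1 day 0 mouse or day 7 replicate 4 or 5 (adjusted p up to 0.164). Tnf stood at -3.23, -3.24 and -3.67 and then at -2.86, 0.30, 0.77, 0.39 and -0.22 (3.06 ± 0.59, adjusted p = 0.00549), with replicate 1 close to the day 0 mice. The other 3 rises were Nfkb2 (0.59 ± 0.15), Tnfrsf1b (1.35 ± 0.37) and Tnfaip2 (1.84 ± 0.51), and 8 members were called higher without day 7 replicate 1 but only 1 or 2 without any other 1 mouse, Tnf among them each time.

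Acute phase genes, best known from the liver, were higher in the colon for all 16 tested, and 7 passed the test (median 1.98, and 0.87 with normexp). Lrg1, a secreted leucine-rich glycoprotein, stood at -1.81, -0.40 and -0.97 at day 0 and at 2.86, 3.54, 4.20, 3.78 and 4.65 at day 7. The mice of a day were close together, and the difference of 4.87 ± 0.43 had the smallest adjusted p of any rise (2.12e-06). Lbp, which carries bacterial lipopolysaccharide, stood at -2.86, -2.28 and -2.33 and then at -0.13, 2.47, 2.67, 0.68 and 1.91 (4.01 ± 0.56). Hp, the haemoglobin-binding haptoglobin, rose by 5.02 ± 0.98, Saa3 by 4.92 ± 0.84, and the protease inhibitor gene Serpina3n by 3.58 ± 0.68. Saa1 (0.34 ± 0.36) and Saa2 (0.27 ± 0.34) did not pass. Of 21 complement genes 9 rose and 0 fell (median 1.21), among them C2 (1.27 ± 0.23), C4b (2.04 ± 0.40), the central component C3 (1.65 ± 0.33) and Cfp, which stabilises its convertase (1.37 ± 0.32). Without day 0 replicate 1 the complement list held 2 calls and without replicate 2 it held 5; with scaling to the array median it held 1.

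Interferon genes moved unevenly between mice. Ido1, the enzyme that opens tryptophan towards kynurenine, stood at -3.02, -6.17 and -3.07 at day 0 and at -0.22, 0.30, 2.69, 1.91 and 1.10 at day 7, with no overlap (5.24 ± 0.80, adjusted p = 0.000711). It was the only 1 of 18 tryptophan and kynurenine genes to pass. The T cell chemokine genes Cxcl10 (3.39 ± 0.89) and Cxcl9 (3.65 ± 0.99) rose as well, and Ifng (3.26 ± 1.08) did not pass, so that 3 of 10 interferon gamma genes rose; the list held 5 calls without day 7 replicate 1 and 1 or 2 without any other 1 mouse. A second Cxcl10 probe, well above background on 1 of the 5 day 7 arrays, gave 1.42. Of 34 interferon-stimulated genes 5 rose (median 0.67), namely Ifit2 (2.70 ± 0.61), Ifi47 (2.08 ± 0.43), Iigp1 (1.99 ± 0.49), Zbp1 (1.28 ± 0.36) and Bst2 (0.88 ± 0.25). Averaged over the 34, day 7 replicate 1 stood at -0.16 relative to the day 0 mean, below the day 0 mice (-0.06 to 0.09), and the other 4 mice stood at 0.72 to 1.65. Without that mouse 15 of the 34 were called, without any other 1 mouse 1 to 4, and under scaling to the array median 0. The genes of MHC class I and the immunoproteasome, which cut and present peptides, split the mice likewise, with a mean of 0.16 above day 0 in replicate 1 and of 0.98 to 1.18 in the other 4. Psmb8 stood at 2.42, 1.79 and 2.27 and then at 2.78, 4.42, 4.45, 4.09 and 4.29 (1.84 ± 0.39, adjusted p = 0.0092), and B2m rose by 0.78 ± 0.20. Of 14 tested 8 rose and all 14 differences were positive (median 0.60), but the list held 12 calls without day 7 replicate 1 and 0 to 2 without any other 1 mouse. Under scaling to the array median none of the 14 was called.

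Lymphocyte genes gave few calls. Of 19 T cell genes 0 were called (median 0.31); the smallest p-values belonged to Il2ra (1.77 ± 0.52, adjusted p = 0.0567) and Gzmb (2.03 ± 0.60, adjusted p = 0.058). Of 10 MHC class II genes 0 were called, with H2-DMb1 at 1.14 ± 0.44 and H2-DMa at 0.80 ± 0.37. Among 17 B and plasma cell genes 1 fell. This was Jchain, which joins the subunits of secreted IgA and IgM, at 2.90, 4.61 and 5.22 at day 0 and at 1.96, 0.72, 2.81, 2.09 and -0.54 at day 7. All day 7 mice were below all day 0 mice, the nearest by less than the range within either day (-2.84 ± 0.69, adjusted p = 0.0223). The call was lost without day 0 replicate 2 or 3, with an adjusted p of up to 0.133. The plasma cell genes Mzb1 (-1.90 ± 0.58) and Tnfrsf17, above background on 2 of 3 day 0 and 0 of 5 day 7 arrays, did not pass.

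**Figure D2:**
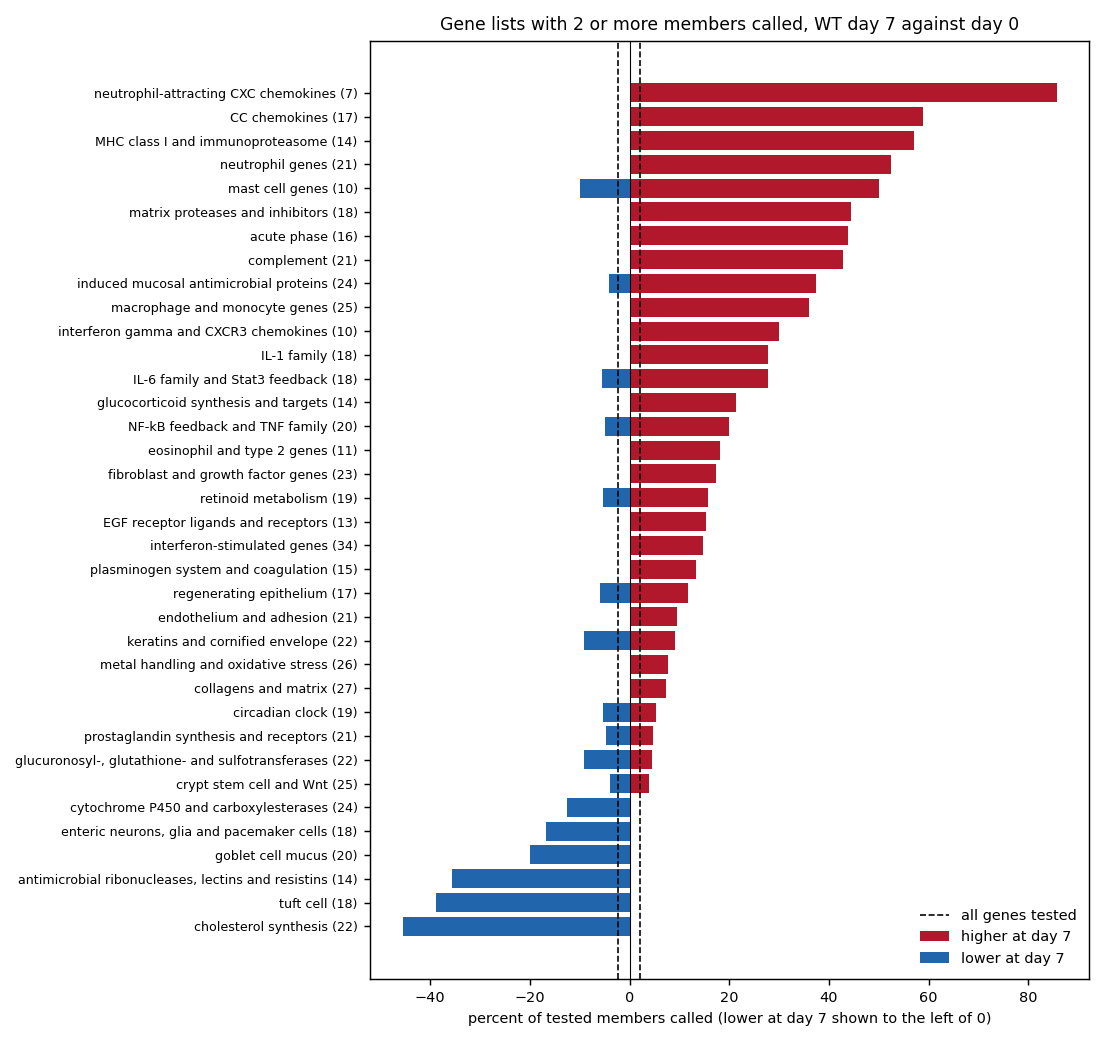
Percent of tested members called (horizontal axis; lower at day 7 to the left of 0) for each gene list with 2 or more called members, with the number tested in brackets. Dashed lines mark all genes tested (2.01% higher, 2.31% lower). CXC chemokines (6 of 7) lie farthest to the right and cholesterol synthesis genes (10 of 22) farthest to the left. Of the 7 CXC chemokine genes, 5 were well above background on no day 0 array.

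Antimicrobial proteins of the epithelium were taken as 2 lists, which were chosen with earlier results of these data known. Most calls were higher in the first list and all were lower in the second. In the first, Reg3b, a lectin that kills bacteria, stood at 0.86, 0.87 and -2.55 at day 0 and at 9.10, 7.55, 6.81, 8.61 and 6.17 at day 7. Its relative Reg3g stood at -0.47, 0.10 and -1.42 and then at 8.14, 5.82, 5.32, 7.54 and 4.48. Unlike the neutrophil genes, both were highest in replicate 1. The differences were 7.92 ± 1.58 (242-fold, adjusted p = 0.00662) and 6.85 ± 1.36 (116-fold, adjusted p = 0.00621). Without day 0 replicate 3 the adjusted p of Reg3b was 0.0507, its highest when any 1 mouse was left out. Slpi, an inhibitor of neutrophil elastase, stood at 1.73, 1.35 and 2.11 and then at 4.75, 5.13, 5.93, 4.51 and 5.52 (3.44 ± 0.50, adjusted p = 0.000499). Lcn2, which withholds bacterial iron carriers, rose by 3.46 ± 0.58, Nos2, the inducible nitric oxide synthase, by 3.60 ± 0.60, and Fut2, which adds fucose to surface sugars, by 1.33 ± 0.20. Fut2 was tight at day 0, at 0.77, 0.76 and 0.81, and then stood at 1.43, 2.04, 2.48, 2.17 and 2.41. Of 24 genes of induced mucosal antimicrobial proteins 9 rose and 1 fell (median 1.31, against 0.80 with normexp and 0.71 in the deposited values). The 1 that fell was Reg4, a lectin of secretory cells, from 5.67, 4.65 and 4.37 to 1.79, 2.81, 0.97, 2.44 and 3.62 (-2.57 ± 0.64, adjusted p = 0.0247), lost without day 0 replicate 1 or 2 or day 7 replicate 3 (adjusted p up to 0.155). As a mean over the list the 5 day 7 mice lay between 1.41 and 2.01 above day 0, a narrower range than the 1.60 to 4.36 of the neutrophil genes.

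The second list, with secreted ribonucleases of the angiogenin family and lectins of the colon surface, held the largest falls of the whole comparison. Their probes are shown because the family has near-identical copies, on which cross-hybridisation was not tested. The sequences are the deposited probes of 60 bases at chr14:51721338-51721397 (plus strand), chr14:51815315-51815374 and chr14:52384066-52384125 (minus strand) of mm9, with no part in capitals.
Ang probe: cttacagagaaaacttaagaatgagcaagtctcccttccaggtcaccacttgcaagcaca
Ang2 probe: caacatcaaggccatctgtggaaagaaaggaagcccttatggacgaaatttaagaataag
Ang4 probe: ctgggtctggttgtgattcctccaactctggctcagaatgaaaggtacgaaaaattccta
The longest run that any 2 of the 3 probes share is 8 bases, between Ang and Ang2. Ang4, an angiogenin made by the gut epithelium, stood at 8.68, 8.20 and 7.99 at day 0 and at 2.65, 1.56, 2.10, 1.67 and 1.18 at day 7. The nearest mice of the 2 days were far apart, and the difference was -6.46 ± 0.59, an 87.9-fold lower signal (adjusted p = 2.46e-06). Ang2 stood at 6.60, 6.08 and 5.79 and then at 0.53, -0.16, -0.06, -0.04 and -0.17 (-6.14 ± 0.49, adjusted p = 5.26e-07). Ang, at 6.98, 6.36 and 6.26 and then 2.25, 1.89, 1.32, 1.61 and 1.54, had the smallest p of any gene (-4.81 ± 0.35, adjusted p = 2.52e-07). A probe that keeps the name Ang3 from the array design, not a member of the list, gave -6.34 ± 0.60. Itln1, a lectin that binds microbial sugars, stood at 6.17, 5.83 and 5.03 and then at 0.87, -0.07, -0.98, -1.01 and -0.88 (-6.09 ± 0.59, adjusted p = 3.66e-06). The probe named Itlnb, which has no genome position and may not separate this near copy from Itln1, was at least 10.4-fold lower. In all 5 named genes other than Itlnb the probe was well above background on all 8 arrays, so the DSS level was low but measured. Of 14 members of the list 5 fell, the fifth being the small proline-rich gene Sprr2a1 (-1.43 ± 0.28), and 0 rose (median -0.73). The list did not fall as a whole, since 5 of the 14 differences were positive. For 2 members every day 7 mouse lay above every day 0 mouse. Retnlb (-1.14 ± 0.60), Zg16 (-0.14 ± 0.29) and Lyz1 (0.78 ± 0.49) did not pass. The count was 4 or 5 in each fit that left out 1 mouse, 5 under scaling to the array median and 4 in the fit of the 8 arrays alone.

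Goblet and tuft cell genes also fell. Of 20 goblet cell genes 4 fell and 0 rose (median -0.35). Fcgbp, a mucus-binding partner of the mucin MUC2, stood at 9.47, 9.23 and 9.31 and then at 7.48, 8.65, 8.18, 7.57 and 7.90 (-1.38 ± 0.27, adjusted p = 0.00606). Ern2, a stress sensor of mucus-making cells, fell by 0.79 ± 0.14, Capn9, a digestive tract protease, by 1.22 ± 0.24, and Bcas1 by 0.76 ± 0.22 (called in 2 of the 8 fits without 1 mouse, adjusted p up to 0.179); 2 of the 4 were called under scaling to the array median. The mucin gene Muc2 (-0.42 ± 0.19), Clca1 (-0.53 ± 0.26) and Tff3 (0.04 ± 0.24) did not pass. Of 18 tuft cell genes 7 fell and 0 rose (median -1.14, and -0.54 with normexp), and for 11 of the 18 every day 7 mouse lay below every day 0 mouse. Bmx, a tyrosine kinase, stood at 0.25, 0.20 and -0.01 and then at -0.72, -0.94, -1.10, -1.25 and -1.34 (-1.22 ± 0.17, adjusted p = 0.000305). Alox5, which makes leukotrienes, stood at 0.66, 0.90 and 0.72 and then at -0.49, -0.97, -0.62, -1.48 and -2.87 (-2.04 ± 0.42, adjusted p = 0.00745). For both the days were apart. Avil (-1.17 ± 0.21), Sh2d6 (-1.30 ± 0.26), Plcg2 (-0.88 ± 0.18), Rgs13 (-2.21 ± 0.60) and the kinase Dclk1 (-1.35 ± 0.38) made up the 7. The taste channel Trpm5 (-1.93 ± 0.65) and the cytokine Il25 (-0.76 ± 1.07) did not pass, nor did Pou2f3, the transcription factor of the lineage, above background on 0 of 3 day 0 and 2 of 5 day 7 arrays. The tuft list held 4 calls without day 0 replicate 2 and 5 to 7 without any other 1 mouse, in the fit with scaling to the array median it held 4, and in that of the 8 arrays alone 0. Alox5 and Plcg2 are also expressed by white blood cells, and the part of such cells in these falls was not tested.

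**Figure D3:**
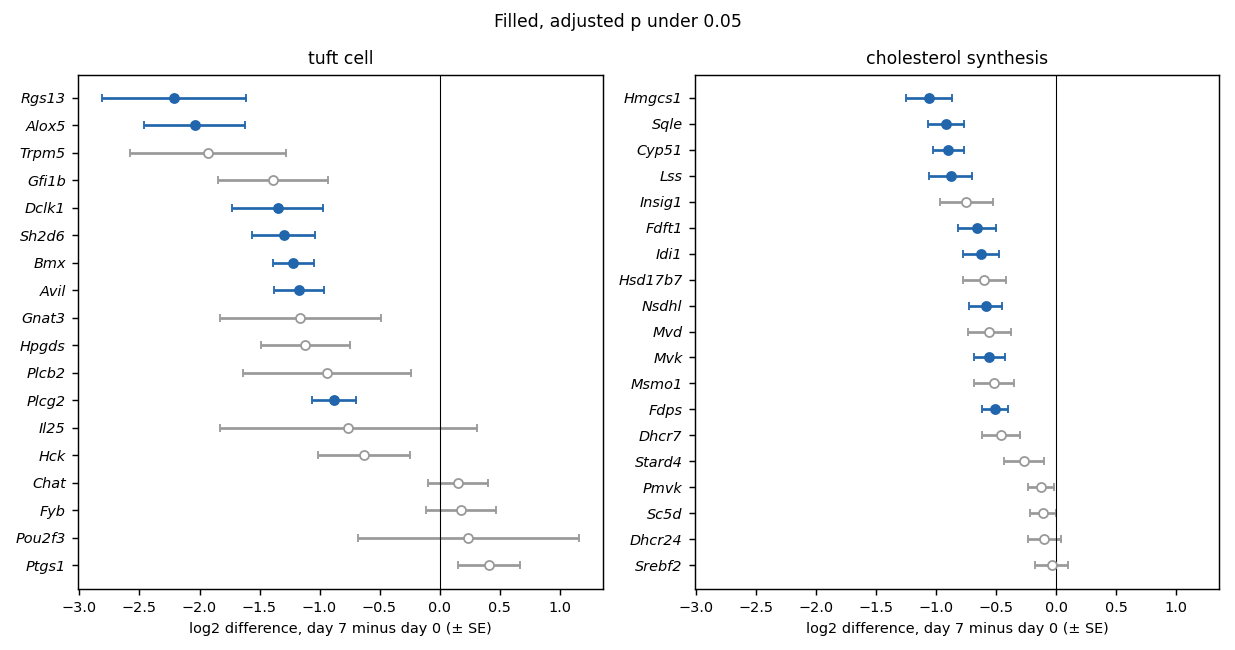
Log2 difference of day 7 minus day 0 (horizontal axis, ± SE) for members of the tuft cell and cholesterol synthesis lists, 3 of the latter not drawn, filled where the adjusted p is under 0.05. Filled points are 7 of 18 in the tuft list and 9 of the 10 called in the cholesterol list, where all points lie below 0.

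Other epithelial lists changed little. Of 27 ion and water transport genes 1 fell, the potassium channel subunit Kcne3 (-0.55 ± 0.15), which was not called without any 1 day 0 mouse, and the sodium channel subunit Scnn1a (-0.98 ± 0.29, adjusted p = 0.0553) did not pass. Of 18 tight junction genes 0 were called; the smallest p-values were those of Cldn15 (-0.80 ± 0.32) and Pard3 (-0.29 ± 0.12). Of 19 enteroendocrine genes 1 rose, Tac1, the substance P precursor that neurons make too, from 2.62, 2.30 and 2.89 to 3.78, 4.55, 5.23, 3.75 and 4.90 (1.84 ± 0.35, adjusted p = 0.00498). Among 25 crypt stem cell and Wnt genes Rspo3, a stromal amplifier of Wnt signals, rose by 1.96 ± 0.40 and Axin2, a target of Wnt signals, fell by 1.69 ± 0.39; Rspo3 was not called under scaling to the array median. Axin2 stood at -0.26, -0.58 and -0.20 and then at -1.41, -2.80, -2.68, -1.65 and -1.62, and its call was lost without any 1 day 0 mouse (adjusted p up to 0.0791). Of 17 genes of regenerating epithelium Ly6a (1.85 ± 0.37) and Il33 rose and Krt17 (-1.81 ± 0.49) fell, the latter called without day 7 replicate 1 or 2 and not without any other 1 mouse; the median of 0.13 turned to -0.16 under scaling to the array median. Of 13 genes of EGF receptor ligands and receptors the ligands Nrg1 (2.42 ± 0.60) and Ereg (2.95 ± 0.82) rose, neither of them called without day 0 replicate 1 or 2 or day 7 replicate 3 or 4. Cell division genes were not called, 0 of 26 for mitosis and 0 of 26 for DNA replication, with only 2 and 1 positive differences (medians -0.30 and -0.46); Nusap1 gave -0.55 ± 0.36 and Prim1 -0.75 ± 0.26.

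Cholesterol synthesis, which builds the sterol from acetyl units in the cell, was lower in small and even steps. All 22 members had negative differences, 10 fell (median -0.56), and for 12 the days did not overlap. Cyp51, the lanosterol demethylase, stood at 1.34, 1.43 and 1.04 and then at 0.47, 0.27, 0.52, 0.53 and 0.06 (-0.90 ± 0.13, adjusted p = 0.00036). Hmgcs1, which makes the precursor of mevalonate, stood at 6.48, 6.33 and 5.91 and then at 5.23, 5.14, 5.43, 5.34 and 4.73 (-1.06 ± 0.19, adjusted p = 0.0035). In both every DSS mouse lay below every day 0 mouse. Sqle, the squalene epoxidase, fell by 0.92 ± 0.15, Lss, which closes the sterol rings, by 0.88 ± 0.18 and Fdps, which makes farnesyl diphosphate, by 0.51 ± 0.11. Srebf2, the factor that drives these genes, did not pass (-0.04 ± 0.14). The list mean in the 5 DSS mice ran only from -0.63 to -0.44. Without day 0 replicate 1 the list held 6 calls and without replicate 2 it held 3; under scaling to the array median it held 0, with a median of -0.85 against -0.27 for all genes.
The promoters of Hmgcs1, Cyp51 and Lss are shown because the members moved together and all 14 with a promoter window hold the letters CCAAT. These were sought on either strand, and 41.1% of all genes with a window hold them. The lines give the 120 bases up to the start (RefSeq, GRCm38.p6) at chr13:119690231-119690350 (plus strand), chr5:4104698-4104817 (minus strand) and chr10:76531485-76531604 (plus strand), each written in the direction of the gene, with CCAAT or its complement ATTGG in capitals.
Hmgcs1: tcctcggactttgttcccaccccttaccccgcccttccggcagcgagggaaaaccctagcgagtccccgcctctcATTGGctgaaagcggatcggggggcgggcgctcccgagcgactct
Cyp51: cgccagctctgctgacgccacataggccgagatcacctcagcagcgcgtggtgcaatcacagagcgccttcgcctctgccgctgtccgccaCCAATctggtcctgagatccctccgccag
Lss: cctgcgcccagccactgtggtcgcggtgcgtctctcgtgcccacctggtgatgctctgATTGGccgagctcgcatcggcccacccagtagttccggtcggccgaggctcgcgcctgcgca
The matches start 45, 29 and 62 bases before the start site. The sterol element letters TCACNCCAC were found in 1 of the 14, Hmgcs1, and in 1.44% of all genes with a window. For comparison, CCAAT lay in 7 of 15 tuft cell genes and in 1 of 13 complement genes with a window.

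Other metabolic lists gave few calls. In retinoid metabolism Aldh1a3, which makes retinoic acid, stood at -3.24, -2.43 and -2.69 and then at 0.98, 0.59, 2.17, 0.49 and -0.43, without overlap (3.54 ± 0.53, adjusted p = 0.000567). Rdh10 (1.06 ± 0.23) and Rdh16 (1.36 ± 0.37), which act 1 step earlier, rose and the retinol carrier gene Rbp4 fell (-0.86 ± 0.18), making 3 higher and 1 lower of 19; without day 0 replicate 1, or under scaling to the array median, 1 gene was higher. Of 24 cytochrome P450 and carboxylesterase genes 3 fell, Cyp4f14 (-1.02 ± 0.26), Cyp4f16 (-0.80 ± 0.21) and Cyp2s1 (-0.96 ± 0.26), none of them called without any 1 day 0 mouse. Hcar2, a receptor for butyrate and niacin, rose by 2.45 ± 0.51, the only call of 17 short-chain fatty acid genes, lost without day 0 replicate 1. The glucocorticoid-responsive gene Zbtb16 stood at -1.04, -2.05 and -2.40 and then at 0.85, -0.03, 0.86, -0.02 and 0.31 (2.23 ± 0.43, adjusted p = 0.0049). Of the clock genes Arntl fell (-1.14 ± 0.26) and Per1 rose (1.02 ± 0.28), and without day 0 replicate 1 or 3 neither was called; the labels give no hour of day. Of 11 genes of the aryl hydrocarbon receptor and its targets 0 were called; Cyp1a1 was above background on 0 of the 8 arrays, and the cytokine Il22 on 0 of 3 day 0 and 4 of 5 day 7 arrays (adjusted p = 0.0788). Oxidative phosphorylation gave 0 of 26 (median -0.08) and glycolysis 0 of 25 (median 0.07).

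Among enzymes that cut the connective tissue matrix, and their inhibitors, rises were common. Of 18 matrix proteases and inhibitors 8 rose and 0 fell (median 2.28, against 1.03 with normexp and 1.16 in the deposited values). The promoters of Mmp3, Mmp10 and Mmp13 are shown because these 3 neighbours on 1 chromosome had the largest rises of the list and each holds an AP-1 motif near the start. The lines give the 120 bases up to the start (RefSeq, GRCm38.p6, plus strand) at chr9:7445702-7445821, chr9:7502222-7502341 and chr9:7272394-7272513, with the match to TGANTCA in capitals, 46, 63 and 35 bases before the start.
Mmp3: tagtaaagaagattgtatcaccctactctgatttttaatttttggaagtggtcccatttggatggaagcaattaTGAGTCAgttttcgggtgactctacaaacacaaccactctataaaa
Mmp10: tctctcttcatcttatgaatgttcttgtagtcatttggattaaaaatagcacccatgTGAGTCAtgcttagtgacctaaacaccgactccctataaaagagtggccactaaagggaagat
Mmp13: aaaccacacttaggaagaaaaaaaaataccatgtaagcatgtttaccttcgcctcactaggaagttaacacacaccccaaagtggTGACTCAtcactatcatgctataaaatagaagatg
The letters TGANTCA read the same on both strands. They lie in a window of 8.97% of all genes and of 5 of 14 list members, Mmp7 and Mmp12 being the other 2. Mmp3, stromelysin 1, stood at -6.32, -3.55 and -4.16 and then at -0.60, 1.43, 4.33, 2.18 and 0.53 (6.25 ± 0.89, adjusted p = 0.000377). Mmp10, stromelysin 2, stood at -6.32, -4.87 and -4.04 and then at -2.72, -0.05, 3.50, 1.73 and 0.42 (5.65 ± 1.00, adjusted p = 0.00264). Mmp13, a collagenase, stood at -5.98, -5.75 and -4.18 and then at -3.06, -0.20, 3.27, 1.24 and 0.21 (5.60 ± 1.04, adjusted p = 0.00407). In all 3 genes the days were apart, replicate 3 was highest and replicate 1 lowest. Of the 3 day 0 arrays, 2 were well above background for Mmp3 and 1 each for Mmp10 and Mmp13. Timp1, an inhibitor of these enzymes, rose by 2.78 ± 0.62, and the aggrecanases Adamts4 (3.23 ± 0.73), Adamts9 (2.35 ± 0.45), Adamts15 (1.88 ± 0.52) and Adamts1 (2.24 ± 0.64) rose too. Mmp7 (2.57 ± 0.85) and Mmp14 (0.00 ± 0.18) did not pass, nor did Mmp9, above background on 0 of 3 day 0 and 2 of 5 day 7 arrays. Without day 0 replicate 1 there were 3 calls, Mmp3, Mmp10 and Mmp13, without replicate 2 there were 5, and under scaling to the array median 3.

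The matrix itself moved less. Of 27 collagen and matrix genes 26 had positive differences (median 0.92) and 2 rose, the crosslinking enzyme gene Lox (at least 1.82-fold) and Eln, elastin (1.40 ± 0.36); there were 0 without day 0 replicate 1 or 2 or day 7 replicate 4, and 5 without day 7 replicate 5. Of 23 fibroblast and growth factor genes 4 rose, among them Hgf, the hepatocyte growth factor (at least 3.00-fold), Inhba, which encodes an activin subunit (2.92 ± 0.77), and Igfbp5 (2.04 ± 0.52); there were 0 without day 0 replicate 1 or 2 and 1 without day 7 replicate 3 or 4. Of 21 endothelial genes Selp, the P-selectin that catches rolling leukocytes, was at least 6.58-fold higher, Pdpn rose by 1.51 ± 0.41, and Icam1 (1.55 ± 0.50), Madcam1 (1.62 ± 0.54) and Vcam1 (1.35 ± 0.48) did not pass; neither call held without day 0 replicate 1 or 2. Of 15 plasminogen and coagulation genes 2 rose, among them the coagulation factor gene F13a1 (2.19 ± 0.48); there were 0 calls without day 0 replicate 1.

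In the muscle wall no contractile gene of 17 was called (median -0.24). Of 18 genes of enteric neurons, glia and pacemaker cells 3 fell. Chrm3, the muscarinic receptor of smooth muscle and epithelium, stood at -1.37, -1.38 and -1.48 at day 0 and at -4.03, -5.76, -5.11, -5.22 and -5.83 at day 7. It was well above background on 3 of 3 and 0 of 5 arrays, at least 8.46-fold lower (adjusted p = 0.000109). Ano1, a chloride channel of pacemaker cells and epithelium, stood at 5.76, 5.62 and 5.36 and then at 4.27, 4.36, 3.42, 3.56 and 4.34 (-1.59 ± 0.34, adjusted p = 0.011). The third was Kit, given above with the mast cell genes. Ano1 was not called without day 0 replicate 1 or 2 (adjusted p up to 0.0668), while Chrm3 and Kit were called in all 8 fits that left out 1 mouse. The neuronal genes Elavl4 (-0.03 ± 0.23) and Vip (0.36 ± 0.46) did not pass. Grpr, the receptor of gastrin-releasing peptide, was among the 10 genes with the smallest p, at 1.06, 0.66 and 0.55 and then at -1.26, -1.05, -1.16, -1.44 and -1.26 (-1.99 ± 0.20, adjusted p = 4.71e-06). So was Myot, which encodes the muscle protein myotilin, at least 5.82-fold higher (adjusted p = 2.99e-06), and Fam221a, at 0.29, -0.01 and -0.21 and then at -1.99, -1.92, -2.18, -2.37 and -2.35 (-2.19 ± 0.20, adjusted p = 2.46e-06).

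Further large falls were of genes in none of the lists. Pdzd7, at least 4.44-fold lower, was above background on all 3 day 0 arrays and on 0 of 5 day 7 arrays. V1ra8, named as a vomeronasal receptor, fell by 4.72 ± 0.85 and was above background on 1 day 7 array, replicate 5 (-3.34, against -6.80 to -6.09 in the other 4). Islr2, a leucine-rich membrane protein of neurons, stood at 1.95, 0.98 and 0.49 and then at -1.65, -2.28, -1.43, -2.78 and -2.46, without overlap (-3.26 ± 0.42, adjusted p = 0.000151). Falls were also found for the phospholipase gene Pla2g4c (-3.36 ± 0.76), Crisp3 (-3.06 ± 0.70) and Ly6g6f (-2.74 ± 0.56). The axonemal dynein gene Dnah5 (-2.83 ± 0.81), the irisin precursor gene Fndc5 (-2.63 ± 0.55), Tppp3 (-2.57 ± 0.58) and Calcb, which encodes a calcitonin gene-related peptide (-2.44 ± 0.69), fell too. Of these 7, Ly6g6f alone was called without each mouse in turn; Dnah5 and Calcb kept their call in 2 of the 8 such fits, with an adjusted p of up to 0.159 and 0.172.

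The DSS mice differed among themselves in how far the inflammatory genes had moved. Averaged over the 21 neutrophil genes, the day 7 mice stood 1.60, 2.14, 4.36, 3.24 and 3.22 above the day 0 mean, and over the 7 CXC chemokine genes 1.77, 2.32, 5.09, 3.72 and 3.02. Replicate 3 was the highest mouse for 315 of the 512 genes called higher (61.5%), against 14.3% of all genes, and replicate 1 the lowest for 266 (52.0%), against 20.5%. These 5 arrays also made the calls, so the shares are a description. The means of 3 other lists lay closer together over the mice. The list of ribonucleases and lectins stood at -1.50, -1.68, -1.69, -1.51 and -1.89, that of cholesterol synthesis at -0.57, -0.59, -0.52, -0.44 and -0.63, and that of induced antimicrobial proteins at 1.41, 1.56, 1.72, 1.89 and 2.01. Single members of the last list spread more and ordered the mice differently. Reg3b (6.17 to 9.10) and Reg3g (4.48 to 8.14) were highest in replicate 1, and Fut2 was lowest there. Replicate 1, with the weakest neutrophil and interferon values, is the day 7 mouse with the highest means of both the proximal and the distal Hox genes. A link between these was not tested. The 10 genes with the largest SD over the 5 DSS mice were not called, and 6 of them, Slc51a, Tmem210, Cyp4b1, Osr2, Sis and S100g, were highest in replicate 1. Slc51a, a bile acid exporter, stood there at 6.16 against -2.57 to -0.49 in the other 4 mice, and S100g, a calcium-binding protein of the upper gut, at 7.43 against 0.05 to 1.64.

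**Figure D4:**
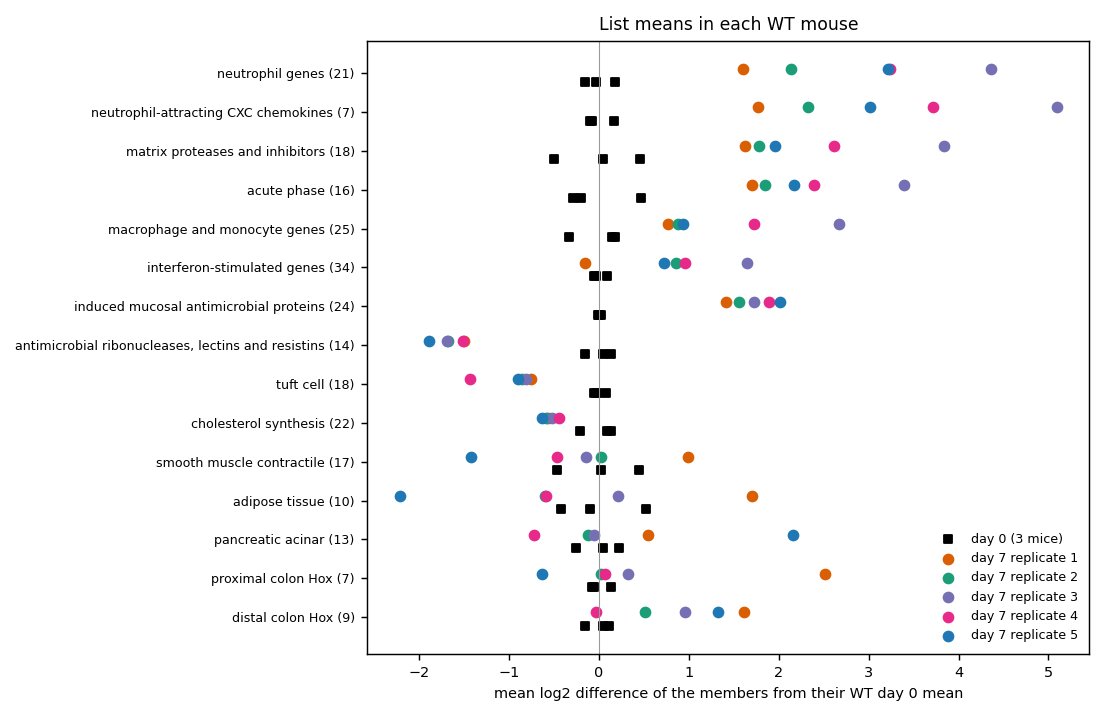
Mean log2 difference of the members of 15 lists from their WT day 0 mean (horizontal axis), with 1 square per day 0 mouse and 1 circle per day 7 mouse. In the neutrophil list the day 7 mice run from 1.60 (replicate 1) to 4.36 (replicate 3), in cholesterol synthesis only from -0.63 to -0.44, and for proximal Hox genes replicate 1 lies alone at 2.51.

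The same interval in Card9-/- mice (3 arrays at day 0 and 4 at day 7) shares no array with the WT comparison. The Card9 probe was well above background on all 7 of those arrays and on 1 of the 8 WT arrays. Both genotypes, WT included, are therefore named by the labels of the arrays. The labels do not describe the deleted stretch, and whether they match the genotypes of the mice was not tested. In the arrays labelled Card9-/- 4998 genes (19.6%) differed between the days. Of the 512 genes higher in WT, 495 (96.7%) had the same sign there and 407 were called in that direction, with medians of 1.64 in WT and 2.21 in the arrays labelled Card9-/-. Of the 590 lower, 554 (93.9%) had the same sign and 376 were called, with medians of -0.87 and -0.63. Over all genes 17472 of 25500 had the same sign in both. Genes of other tissues also changed in the arrays labelled Card9-/-. Their median was 7.57 over 13 pancreatic acinar genes and 4.13 over 7 red blood cell genes, against 0.48 and 0.30 in WT. The part of such tissue in these counts and sizes was not tested. A direct test of the difference between the changes called 1 gene (0.00392% of those tested), where 2947 had an unadjusted p under 0.05. That gene, Slc16a6, related to the carriers of lactate and pyruvate, was named after its values were seen. In WT it stood at 1.55, 1.75 and 1.55 and then at 0.90, 0.84, 1.16, 0.92 and 0.88, a fall of 0.68 ± 0.12, against a rise of 0.49 ± 0.13 in the arrays labelled Card9-/- (difference -1.17 ± 0.18, adjusted p = 0.039). No gene was called in any fit that left out 1 WT mouse other than day 7 replicate 3; without that mouse 528 were.

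For 5 genes of the 40 largest WT changes, picked after their values were seen, the sizes in the 2 genotypes are set side by side with the test of the difference. S100a9 rose by 7.87 ± 0.80 in WT and by 12.88 ± 0.84 in the arrays labelled Card9-/- (difference -5.01 ± 1.16, adjusted p = 0.202). Cxcl5 rose by 4.75 ± 0.59 and by 8.64 ± 0.62 (difference -3.89, adjusted p = 0.202). For S100a9 and Cxcl5, 0 of the day 0 arrays labelled Card9-/- were well above background. The sizes of their rises there, and of the differences from WT, are therefore uncertain. Ido1 went the other way, with 5.24 ± 0.80 in WT and 2.32 ± 0.83, which did not pass, in the arrays labelled Card9-/- (difference 2.92, adjusted p = 0.327). The fall of Ang4 was -6.46 ± 0.59 and -4.73 ± 0.61 (difference -1.72, adjusted p = 0.445). Pla2g4c fell in WT and stood at -0.09 ± 0.80 in the arrays labelled Card9-/- (difference -3.27, adjusted p = 0.272). With these errors neither equality nor a difference is shown for any of the 5.

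**Figure D5:**
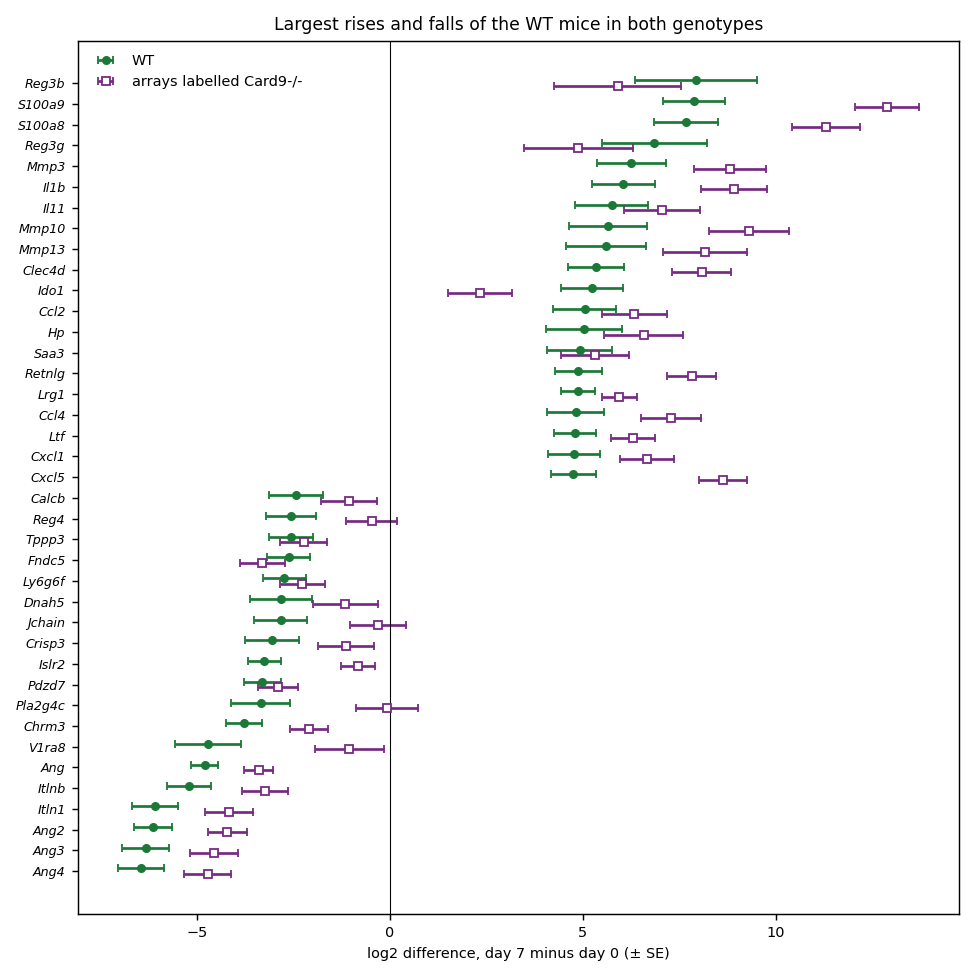
Log2 difference of day 7 minus day 0 (horizontal axis, ± SE) of the 20 largest rises and 20 largest falls of the WT mice, 1 fall not drawn, in WT (filled circles) and in the arrays labelled Card9-/- (open squares). All genes drawn lie on the same side of 0 in both, and none of them passed the test of the difference. For some rises, S100a9 and Cxcl5 among them, no day 0 array labelled Card9-/- was well above background, so their sizes there are uncertain.

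After 5 days of plain water, WT mice at day 12 were compared with the same 3 day 0 arrays, so the 2 comparisons are not independent and their values are only set side by side. Ang4 was at -6.46 ± 0.59 at day 7 and -5.01 ± 0.59 at day 12, Ang2 at -6.14 ± 0.49 and -5.01 ± 0.49, and Itln1 at -6.09 ± 0.59 and -5.32 ± 0.59. Il1b was at 6.05 ± 0.81 and 5.75 ± 0.81, and Cxcl5 at 4.75 ± 0.59 and 4.71 ± 0.59. Values nearer to day 0 at day 12 were those of Hp (5.02 ± 0.98 and 2.25 ± 0.98), Mmp3 (6.25 ± 0.89 and 3.42 ± 0.89) and Reg4 (-2.57 ± 0.64 and -0.67 ± 0.64), none of which passed the test at day 12. These 8 were picked after their values were seen, and the change from day 7 to day 12 was not tested here.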

How the data were processed

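Each array's deposited scanner file gives one spot intensity per probe (Agilent Feature Extraction 10.7.3.1, per the file headers), background-subtracted by the authors' scanner software; genome coordinates of probes are mm9. Control spots were left out (59305 of 62976 remained, 55681 probes), and log2 of each deposited intensity was taken minus the 75th percentile of its array. Probes had to be well above background on 3 or more arrays (36356 kept), with the brightest probe of a gene. Through RefSeq 27610 probes were named by accession and 3683 by symbol or synonym; 24388 kept the file's name. All 25 arrays were fitted in 1 limma model of 6 groups (limma 3.58.1, R 4.3.3; data.table version 1.17.8, Python 3.11.15, matplotlib 3.10.9), with Benjamini-Hochberg adjusted p under 0.05 as the call; the scripts were tested on simulated data. The authors' deposited values (log2 scale, 33418 probes; their centring is not stated) served as an alternative, as did normexp (offset 50), quantile and array-median scaling, other filters on dim probes, slide, replicate number and Hox covariates, and leaving out arrays.

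A gene well above background on no array of a group has a fold given as "at least", the brighter group's mean against, per array of the dimmer group, the higher of the lowest signal well above background and the probe's own. Named were the 20 largest rises and falls, the 10 smallest p and the 10 largest SD over day 7 mice, and of each list the 5 smallest p (every member of lists of up to 20, the 2 smallest p where none was called). The first 3 needed a called gene, a proper symbol, no overlap, and a probe above background throughout 1 group. Other names were chosen after their values were seen. The comparison and the lists were chosen with earlier results of these data known. Of 184 members of the lists searched for 5 motifs, 140 had a promoter window. Nothing in the labels says more than that each array is 1 mouse, and the number of arrays limits the precision. Some genes that the rule names are not reported here.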

Additional observations from a re-analysis of the deposited data

Results flagged for a closer look

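Of 117 values examined over the 5 WT day 7 mice, 15 had 1 mouse set apart from the other 4 (Dixon's critical value 0.71). Chance marks about 5% of groups of this size, but the 15 cannot be set against that share. The values include the 10 genes picked for the largest SD over these same mice, and some lists share members. Slc51a, S100g, Tmem210, Vmn1r201 and Mro below come from that pick. The mouse was replicate 1 in 7 of them, replicate 3 in 3, replicates 2 and 5 in 2 each, and replicate 4 in 1.

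In replicate 1, Slc51a (6.16, others -2.57 to -0.49), S100g (7.43, others 0.05 to 1.64) and Tmem210 (4.44, others -3.87 to -2.46) were far above the other DSS mice. Ang2 was slightly above them (0.53, others -0.17 to -0.04), and Ltf below them (-3.28, others -1.39 to -0.72). The mean of the MHC class I and immunoproteasome genes was low in that mouse (0.16 relative to day 0, others 0.98 to 1.18), and that of skeletal muscle genes high (1.10, others -0.46 to -0.04). In replicate 3 the means of endothelial genes (1.89, others 0.52 to 0.78) and of prostaglandin genes (0.60, others 0.10 to 0.20) were high and that of oxidative phosphorylation low (-0.45, others -0.05 to 0.06). The tuft cell mean was lowest in replicate 4 (-1.43, others -0.90 to -0.76). Myot was lowest in replicate 2 (-2.70, others -2.11 to -1.91), where Vmn1r201 was high (0.68, others -7.04 to -5.93). In replicate 5, Mro (0.98, others -6.23 to -5.33) and V1ra8 (-3.34, others -6.80 to -6.09) were high.

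Slc16a6 changed in opposite directions in the genotypes as labelled, -0.68 in WT and 0.49 in the arrays labelled Card9-/- (difference -1.17, adjusted p = 0.039 by limma's test of the difference).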

How the results depend on the processing

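Of the 1102 genes called, 11 changed sign with the mean of a gene's probes and 1 in the deposited values. Of 1102 calls in the comparison of WT day 7 with day 0 (512 higher, 590 lower), scaling to the median of the array left 310 (116 and 194), the 13 WT arrays alone gave 531 (224 and 307), and the 8 arrays alone 38 (13 and 25). Alternatives chosen after seeing the data gave 2574 (1176 and 1398) with array weights, and 3 (0 and 3; 2943 genes at an unadjusted p under 0.05) with slide as a block in the 8 arrays alone. Leaving out 1 mouse gave 393 to 1590 calls, 158 to 740 of them higher and 193 to 850 lower, with a day 0 mouse missing in the 3 smallest. The total of calls stayed within 1.5 times in the other settings: normexp 931, quantile 981, the deposited values 1156, no filter 782, a filter of 13 arrays 1305, the mean of a gene's probes 997, slide as a block 1231, the Hox covariate 1541 and, added after seeing the data, without day 7 replicates 1 and 5 1394. Replicate numbers did not pair the samples (correlations of -0.04, 0.05 and 0.12), and the replicate block gave 843 calls.

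The test of the difference between genotypes called 1 gene, and 0 with normexp, array-median scaling, no filter, the mean of probes, the replicate block, the Hox covariate or without day 7 replicates 1 and 5. It called 0 to 528 without 1 mouse and 1369 with array weights. Of 158 called genes named by the rule, 72 (46 higher, 26 lower) were called in all 8 fits without 1 mouse. None of the 158 changed sign in a setting that tested it. The deposited values tested 145 of them and the filter of 13 arrays 150, and the settings reuse the same arrays. The cause of the shifts in the counts was not tested.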

Other observations

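The genes here lie outside the naming rule and were picked after their values were seen. Bhmt, which remethylates homocysteine with betaine, stood at -5.41, -4.97 and -6.19 at day 0 and at -1.82, 0.31, 1.05, -0.93 and -2.51 at day 7, at least 15.2-fold higher (limma adjusted p = 0.00941). Its neighbour in the pathway Dmgdh rose by 2.79 ± 0.65 and its relative Bhmt2 by 2.43 ± 0.54. Ripk3, a kinase of necroptosis, rose by 1.34 ± 0.26, its substrate Mlkl by 0.72 ± 0.18 and the pore-forming protein gene Gsdmd by 0.81 ± 0.18. Gsdmc3, another gasdermin, fell by 1.36 ± 0.28.

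The peptide genes Grp, whose receptor gene Grpr fell as well, and Nmu fell by 1.73 ± 0.48 and 1.99 ± 0.45. Il17rb, a subunit of the IL-25 receptor, fell by 1.82 ± 0.40 and Sh2d7 by 2.24 ± 0.59. Steap4, a metalloreductase, rose by 2.87 ± 0.53 and Ch25h, which makes 25-hydroxycholesterol, by 2.13 ± 0.53.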
